A study of Mus musculus with 4 samples.

Results

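Cytokine signals in conventional dendritic cells pass through JAK kinases and STAT transcription factors and are held back by SOCS proteins. The genes described here are 10 listed members of that pathway, chosen by symbol from the 19938 genes that the arrays measured: the kinase gene Jak2, the STAT genes Stat3, Stat4, Stat5a, Stat5b and Stat6, and the inhibitor genes Socs1, Socs2, Socs3 and Cish. For each gene the brightest probe set annotated to that symbol alone was used. The samples were cDC2, conventional dendritic cells that show antigen chiefly to CD4 T cells, sorted from mouse spleen. There were 2 arrays labelled Id2 KO, from Id2 knockout Zbtb46-GFP chimeric mice, and 2 arrays labelled WT, from Zbtb46-GFP chimeric mice without the Id2 label. Both groups thus carried, by their labels, a fluorescent reporter of Zbtb46, whose product marks conventional dendritic cells, and no treatment was named. Id2 encodes a helix-loop-helix protein that binds E proteins and keeps them off DNA. The knocked-out part of Id2, the ages, the hosts of the chimeras and the host cells left in them were not given in the sources used here. The design text names bone marrow as a source although every sample label names spleen.

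As background, a cytokine receptor brings JAK kinases together, the kinases phosphorylate the receptor, and STAT proteins that dock there are phosphorylated, pair and enter the nucleus. STAT pairs then switch on SOCS genes, whose products bind receptors or kinases through an SH2 domain and recruit a ubiquitin ligase through a SOCS box, which closes a feedback loop. In dendritic cells, STAT3 carries part of the Flt3 ligand signal that expands their progenitors, STAT5 carries that of GM-CSF, STAT4 that of IL-12 and STAT6 that of IL-4.

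Because STAT pairs bind TTCNNNGAA and E proteins bind CANNTG, the promoter windows of the members were searched for both. RefSeq windows of 300 bases (GRCm38.p6), from 250 bases before an annotated start to 50 after it, matched 9 of the 10 genes in 12 windows, all but Socs2. Each motif reads the same on both strands, and CAGCTG is a form of CANNTG. TTCNNNGAA was found in 2 of the 9 genes, Cish and Socs3, in 2 of the 12 windows (16.7%), and in 8.30% of all 32851 windows. CANNTG was found in 6 of the 9 genes, in 8 of the 12 windows (66.7%), and in 72.3% of all windows. CAGCTG was found in 4 of the 9 genes, Jak2, Stat3, Stat5a and Stat5b, in 4 of their 12 windows, and in 16.3% of all windows. The first pair of windows below shows the feedback genes with a STAT motif, and the other pair the members with the largest positive differences after Socs2. They lie at chr9:107296409-107296708 (Cish, plus strand), chr11:117969317-117969616 (Socs3, minus strand), chr11:100939491-100939790 (Stat3, minus strand) and chr19:29251553-29251852 (Jak2, plus strand). Capitals mark TTCNNNGAA in Cish and Socs3 and CAGCTG in Stat3 and Jak2, and each sequence reads 5′ to 3′ along the gene.
Cish: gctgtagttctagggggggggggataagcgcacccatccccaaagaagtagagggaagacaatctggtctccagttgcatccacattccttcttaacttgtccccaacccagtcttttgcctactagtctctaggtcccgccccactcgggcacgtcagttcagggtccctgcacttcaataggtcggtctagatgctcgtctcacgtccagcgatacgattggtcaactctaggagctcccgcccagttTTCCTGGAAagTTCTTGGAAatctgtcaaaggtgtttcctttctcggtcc
Socs3: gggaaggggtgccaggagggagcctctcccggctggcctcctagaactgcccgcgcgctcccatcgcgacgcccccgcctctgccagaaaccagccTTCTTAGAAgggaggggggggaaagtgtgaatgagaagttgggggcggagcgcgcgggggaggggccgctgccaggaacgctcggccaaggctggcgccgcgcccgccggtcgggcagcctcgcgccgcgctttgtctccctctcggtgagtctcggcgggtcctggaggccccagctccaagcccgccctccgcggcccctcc
Stat3: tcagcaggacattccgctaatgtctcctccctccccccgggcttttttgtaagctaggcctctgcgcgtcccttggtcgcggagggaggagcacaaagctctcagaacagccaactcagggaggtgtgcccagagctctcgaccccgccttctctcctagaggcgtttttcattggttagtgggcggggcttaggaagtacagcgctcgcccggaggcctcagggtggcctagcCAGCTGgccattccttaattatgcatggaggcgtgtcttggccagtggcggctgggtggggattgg
Jak2: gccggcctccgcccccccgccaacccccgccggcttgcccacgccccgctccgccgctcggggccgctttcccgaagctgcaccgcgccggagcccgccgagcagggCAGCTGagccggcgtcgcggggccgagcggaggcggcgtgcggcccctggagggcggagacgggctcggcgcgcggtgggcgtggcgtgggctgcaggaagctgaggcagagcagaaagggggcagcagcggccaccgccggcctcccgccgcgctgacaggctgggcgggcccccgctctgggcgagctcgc
In Cish one match begins at the annotated start and another 11 bases after it, separated by a pair of bases. In Socs3 the match begins 154 bases before the start, in Stat3 16 bases and in Jak2 143 bases before it. A match is a description of the letters and not a measured binding site, and binding was not measured in these samples.

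The values are the authors' normalized probe set intensities, given here as log2, and a difference is the mean of the Id2 KO arrays minus the mean of the WT arrays. Median intensities of the 4 arrays lay between 128 and 134. Id2 was at 8.71 and 8.97 in the Id2 KO arrays, against 9.14 and 9.08 in WT (limma, adjusted p = 0.172), and its single probe set checks nothing if it lies outside the deleted part, so every direction below rests on the labels. Xist, the RNA of the inactive X chromosome, was at 6.67 and 6.68 in the Id2 KO arrays, against 11.96 in both WT arrays, and the Y-linked Kdm5d at 8.08 and 8.50, against 5.72 and 5.53 in WT, so genotype and sex-linked levels cannot be told apart. Of the 13 cDC2 markers listed, 12 lay above the intensity filter of log2 6.77 on their mean over the 4 arrays, and of these 3 fell, 1 rose (Esam) and 8 did not pass, among them Sirpa, Itgax and Flt3. Itgam, which encodes CD11b, differed by -0.998 (limma, adjusted p = 0.00479) and Cd4 by -0.84 (limma, adjusted p = 0.00323). Zbtb46 was at 6.49 and 6.59 in the Id2 KO arrays, below the filter level, against 7.57 and 7.55 in WT (-1.02, limma adjusted p = 1.35e-04). Whether replicates came from separate mice is not stated, and every p-value covers just the scatter among these 4 arrays, which may be technical. In sorted bulk cells, fewer cells of a type and less RNA per cell cannot be told apart.

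Among the 10 genes, Socs2 was the 1 called: it rose 1.74-fold in the Id2 KO arrays on the brightest probe set annotated to it. On a second, dimmer Socs2 probe set the log2 difference was smaller, at 0.49. Whether the brightest set lies at the Socs2 gene was not checked. The other 9 did not pass the test, and their differences lay between -0.33 (Stat4) and 0.30 (Stat3) on the log2 scale. All 10 lay above the filter on their mean over the 4 arrays and were tested among 11963 genes with limma (lmFit and eBayes, two-sided, Benjamini-Hochberg over all tested genes, threshold 0.05). The count of 1 higher and 0 lower stands against 5.53% of all tested genes called higher and 2.52% called lower, 8.04% in all. At an unadjusted p under 0.05, 5 of the 10 passed, namely Socs2, Stat3, Stat4, Jak2 and Socs3, against 20.7% of all tested genes. The groups did not overlap in 5 members that were higher and 2 that were lower, against 27.9% and 22.8% of all tested genes (50.7% in either direction). The median difference of the members was 0.13, beside 0.01 for all tested genes. Whether any member's difference differs from another's was not tested.

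**Figure D1:**
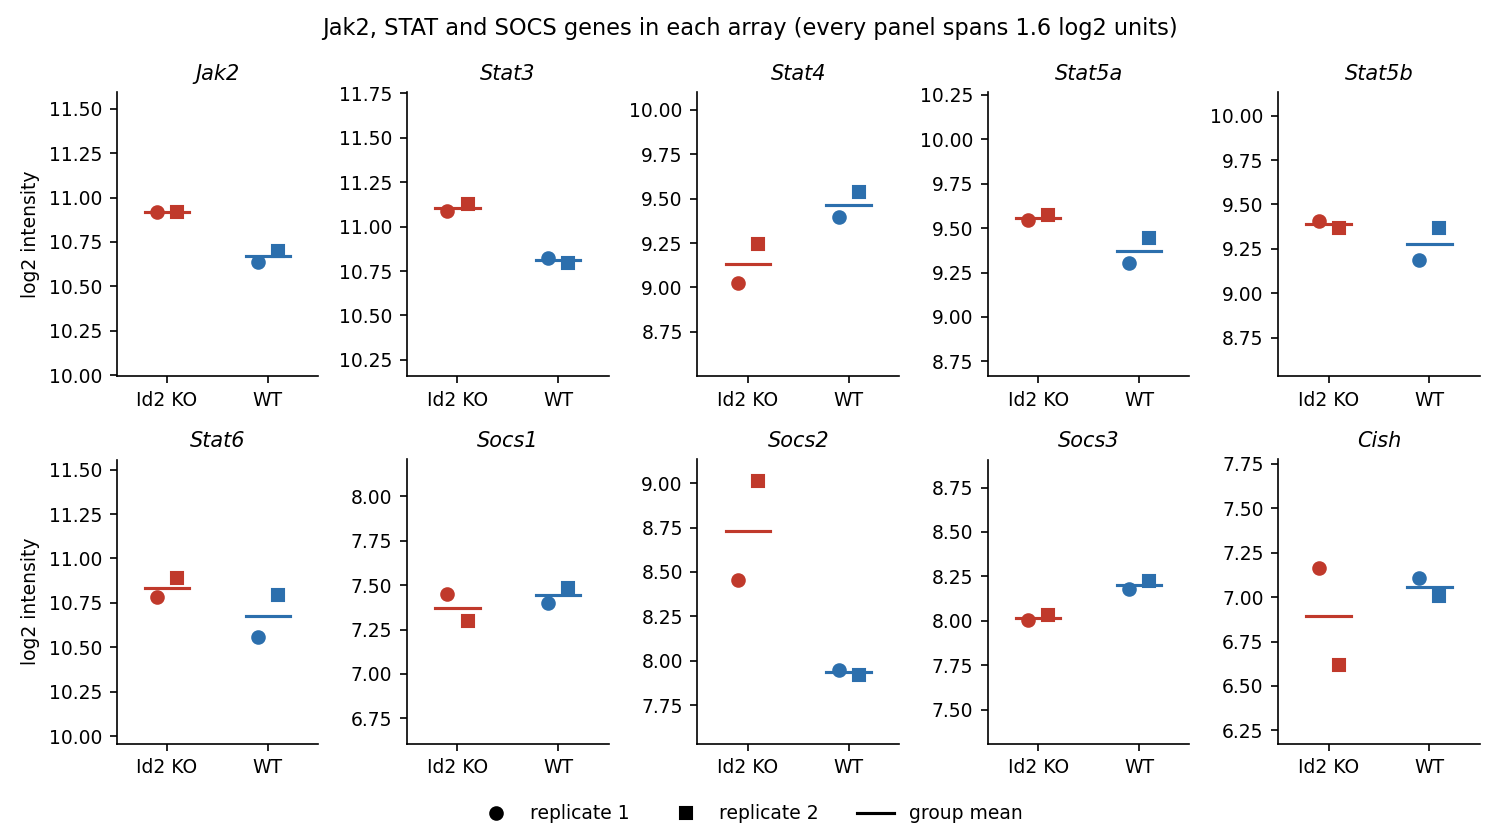
Log2 intensity (y axis) of the 10 genes in each array, with Id2 KO arrays in red on the left and WT arrays in blue on the right of each panel. Circles are replicate 1, squares replicate 2 and bars group means, and all panels span the same log2 range. Socs2 in the Id2 KO arrays lies at 8.45 and 9.01, above both WT arrays, and Socs2 and Cish have the widest gaps between the Id2 KO arrays.

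Jak2 encodes the kinase bound to the receptors of GM-CSF, IL-3, interferon gamma, IL-12 and erythropoietin. Its level was 10.92 in each of the Id2 KO arrays, against 10.64 and 10.70 in WT. The groups did not overlap, with a gap of 0.22 between the nearest arrays, and the Id2 KO arrays differed from each other by only 0.0017. The difference of 0.25 (95% interval 0.07 to 0.43, 1.19-fold, n = 2 per group) had an unadjusted limma p of 0.0117 and did not pass after adjustment over all genes (adjusted p = 0.100). Over the 13 alternative settings it lay between 0.21 and 0.28 without passing in any of them (adjusted p between 0.0587 and 0.464).

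Stat3 encodes the STAT of the IL-6, IL-10 and Flt3 ligand receptors. It was at 11.09 and 11.12 in the Id2 KO arrays, against 10.82 and 10.79 in WT. Both Id2 KO arrays were higher than both WT arrays by at least 0.26, several times the distance between arrays of a group (0.04 in Id2 KO, 0.03 in WT). The difference of 0.30 (95% interval 0.12 to 0.48, 1.23-fold) narrowly missed the threshold (limma, adjusted p = 0.0546). It passed with 50 added to each intensity before log2 (adjusted p = 0.0294), with genes above the 60th percentile (0.0452) and with a variance trend and robust moderation (0.0253), and its adjusted p reached 0.227 without WT replicate 1.

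Stat4, the STAT of the IL-12 and IL-23 receptors, was the STAT member with a negative difference. Its level was 9.02 and 9.24 in the Id2 KO arrays, against 9.40 and 9.54 in WT. The groups did not overlap, although the gap between them of 0.15 was smaller than the 0.22 between the Id2 KO arrays. The difference of -0.33 (95% interval -0.56 to -0.11) did not pass (limma, adjusted p = 0.0856). It was -0.44 without Id2 KO replicate 2 and -0.22 without Id2 KO replicate 1. T and NK cells also use STAT4: of 10 tested genes of the T and NK cell list 1 was lower (Cd3d) and none higher, with a median of -0.07, and the summed intensity of its 15 measured genes was 2739.99 and 2682 in the Id2 KO arrays, against 2768 and 2787 in WT. Their part in the level of Stat4 was not tested.

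Stat5a and Stat5b encode near-identical STATs that serve GM-CSF, IL-3, growth hormone and prolactin receptors. The genes lie side by side on chromosome 11, with Stat3 next to Stat5a in the RefSeq gene table. Stat5a was at 9.54 and 9.57 in the Id2 KO arrays, against 9.30 and 9.44 in WT. Stat5b was at 9.41 and 9.37 in the Id2 KO arrays, against 9.19 and 9.37 in WT. For Stat5a the groups were apart by 0.10, while for Stat5b the lower Id2 KO array and the higher WT array were equal to 2 decimals. The differences were 0.19 (95% interval -0.01 to 0.38, limma adjusted p = 0.262) for Stat5a and 0.11 (-0.09 to 0.31, adjusted p = 0.561) for Stat5b, and neither passed under any of 13 alternative settings. Probe sets for close paralogs can pick up each other's transcripts, which was not tested.

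Stat6, the STAT of IL-4 and IL-13, was at 10.78 and 10.89 in the Id2 KO arrays, against 10.56 and 10.80 in WT. The groups overlapped, since Id2 KO replicate 1 lay below WT replicate 2. The difference was 0.16 (95% interval -0.07 to 0.38, limma adjusted p = 0.432), so a rise of up to 0.38 or a fall of up to 0.07 lies within the interval.

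**Figure D2:**
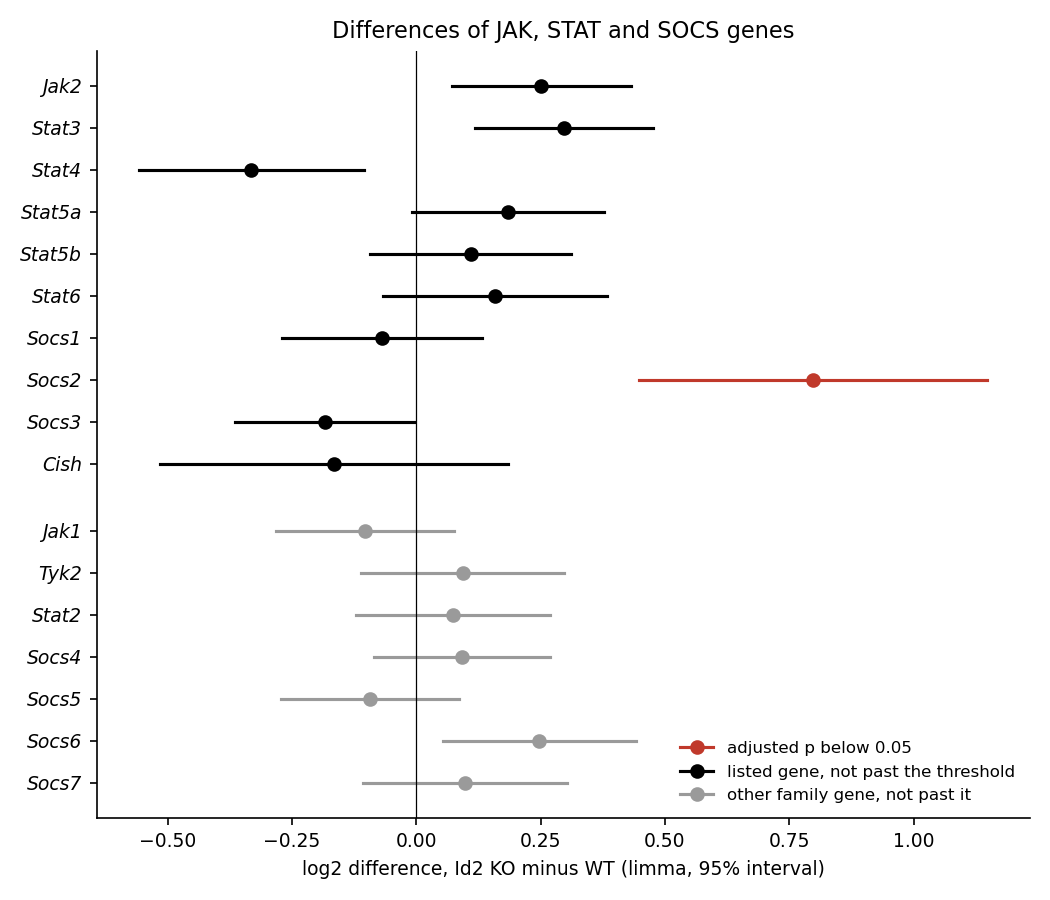
Log2 difference of Id2 KO minus WT (x axis) with its 95% limma interval for the 10 listed genes and, under them, the 7 other JAK, STAT and SOCS genes that were measured. Socs2 at 0.80, in red, was the 1 past the threshold, and the intervals of Jak2, Stat3, Stat4, Socs3 and Socs6 do not reach 0 before adjustment. Each gene is shown on the brightest probe set annotated to it, whose place on the genome was not checked.

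Socs2 encodes a SOCS protein best known as a brake on growth hormone signalling, and its transcription is induced by STAT5. Its level was 8.45 and 9.01 in the Id2 KO arrays, against 7.95 and 7.92 in WT. Both Id2 KO arrays were above both WT arrays by at least 0.51, but the Id2 KO arrays differed from each other by 0.56, and the WT arrays by 0.03. The mean was 8.73 ± 0.39 in the Id2 KO arrays and 7.93 ± 0.02 in WT (SD, n = 2 each), a difference of 0.80 (95% interval 0.45 to 1.15) that passed (limma, adjusted p = 0.0138). Of all tested genes, 2.11% had a larger difference in either direction. Socs2 no longer passed without WT replicate 1 or without WT replicate 2, with differences of 0.81 and 0.78. Its difference was 1.08 without Id2 KO replicate 1 and 0.52 without Id2 KO replicate 2. A fit with 1 Id2 KO array holds no scatter of that group, so no call is read from it. With every array kept, the adjusted p in limma ranged from 0.00164 (replicate pairing crossed) to 0.0348 (renewed quantile normalization).

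A second probe set annotated to Socs2 gave the same order. It was at 7.43 and 7.51 in the Id2 KO arrays, against 7.01 and 6.94 in WT. The groups were apart there as well, and the Id2 KO arrays lay closer together than on the brighter probe set, with a difference of 0.49. With the mean of both probe sets the difference was 0.65 and passed (limma, adjusted p = 0.00601). In the numbering of probe sets, the dimmer set lies between those of Spic and Lyz2, genes of chromosome 10, as is Socs2. The brighter set lies between those of Socs3, on chromosome 11, and Rrm2, on chromosome 12. Where either set lies on the genome was not checked, so the brighter set may not measure Socs2.

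Genes of other cells and of the cell cycle moved with the same split of the arrays. Of 12 tested neutrophil genes all 12 fell, led by Ngp and Lcn2, and the summed intensity of the list was 1615 and 2523 in the Id2 KO arrays, against 18107 and 18771 in WT. Of 12 tested cell cycle genes 11 rose, led by Kif11 and Ccna2, with sums of 18299.7 and 14559 in the Id2 KO arrays, against 8558 and 8547 in WT. Of 11 tested B cell genes 9 rose and 1 fell, led by Fcmr and Ms4a1, with sums of 3672 and 4095 in the Id2 KO arrays, against 2795 and 2782 in WT. The order within the Id2 KO pair was not shared by these lists: Socs2 and the B cell and neutrophil sums were higher in replicate 2, and the cell cycle sum in replicate 1. Of 8 tested plasmacytoid dendritic cell genes 4 rose, led by Ly6d and Spib and with Siglech and Pacsin1 among them. Bst2 (0.04), Tcf4 (-0.07), Ccr9 (-0.16) and Cd300c (0.40) did not pass. The sums of this list were 3448 and 3509 in the Id2 KO arrays, against 2855 and 2859 in WT. Of 9 tested monocyte and macrophage genes 5 fell, led by C1qa and Cd14, with sums of 12794 and 12779 in the Id2 KO arrays, against 14043 and 15148 in WT, and of 6 tested erythroid genes 4 fell, led by Slc4a1 and Alas2, with sums of 1107 and 1157 in the Id2 KO arrays, against 1757 and 2041 in WT. No probe set was at 0, the lowest intensity on any array being 5.19. The part of these cells in the level of Socs2 or of the other members was not tested.

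Cish encodes CIS, a SOCS protein induced by STAT5, whose promoter window holds both TTCNNNGAA matches shown above. Its level was 7.17 and 6.62 in the Id2 KO arrays, against 7.11 and 7.01 in WT. The groups overlapped: replicate 1 of Id2 KO was the highest of the 4 arrays and replicate 2 the lowest, below the filter level of 6.77. The difference of -0.17 (95% interval -0.51 to 0.18) did not pass (limma, adjusted p = 0.617). Its direction rested on single arrays, at -0.44 without Id2 KO replicate 1 and 0.11 without Id2 KO replicate 2.

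On the probe sets used, Socs2 and Cish were the members with the widest spread between the Id2 KO arrays, 0.56 and 0.55. They ran in opposite directions, Socs2 being higher and Cish lower in replicate 2. The wide spread of Socs2 was not seen on its dimmer probe set, at 7.43 and 7.51 in the Id2 KO arrays. A spread above 0.5 was seen in 101 of the 11963 tested genes (0.844%) in the Id2 KO pair and in 20 (0.167%) in the WT pair. The other 8 members stayed within 0.22 in the Id2 KO pair, and all 10 within 0.24 in the WT pair.

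Socs3 encodes the inhibitor of receptors that use gp130 and of the G-CSF receptor, and STAT3 induces it. Its level was 8.001 and 8.03 in the Id2 KO arrays, against 8.18 and 8.22 in WT. Both Id2 KO arrays were lower than both WT arrays by at least 0.15. The difference of -0.18 (95% interval -0.36 to -0.0049) did not pass (limma, adjusted p = 0.230). A dimmer probe set annotated to Socs3 was at 7.41 and 7.62 in the Id2 KO arrays, against 7.49 and 7.43 in WT. Its difference was 0.06, of the other sign, with overlapping groups. Whether the dimmer set reads the strand of Socs3 was not checked, so it may not be a second measure of that transcript.

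Socs1, the inhibitor of interferon gamma signalling that blocks JAK kinases directly, was at 7.45 and 7.30 in the Id2 KO arrays, against 7.40 and 7.48 in WT. The arrays of the groups overlapped. The difference was -0.07 (95% interval -0.27 to 0.13, limma adjusted p = 0.737), and without Id2 KO replicate 2 it was 0.0088.

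**Figure D3:**
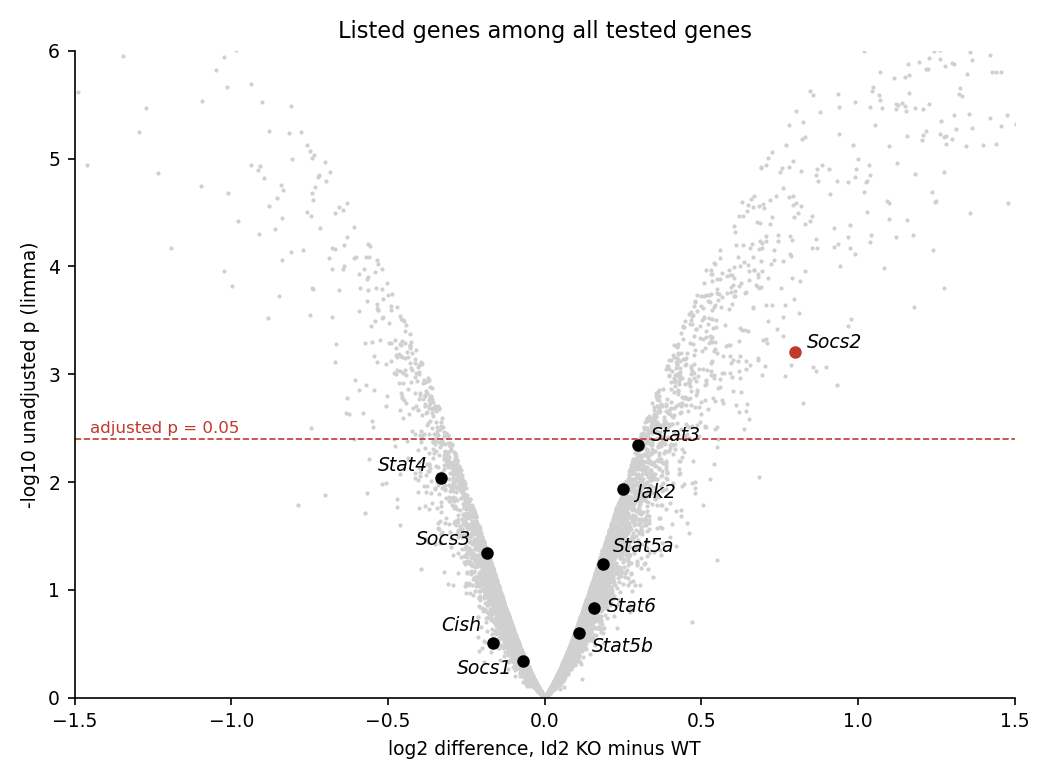
Log2 difference of Id2 KO minus WT (x axis) against -log10 of the unadjusted limma p (y axis) for the tested genes, in grey, with the 10 listed genes marked. The dashed line is the adjusted threshold, 75 genes lie outside the axes, and Socs2 lies above the line, with Stat3 just under it.

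The other genes of the JAK, STAT and SOCS families that were measured were Jak1, Tyk2, Stat2, Socs4, Socs5, Socs6 and Socs7. None of these 7 passed in limma, against 8.04% of all tested genes, and 1 of them had an unadjusted p under 0.05. Socs6 had the largest difference, at 8.13 and 8.18 in the Id2 KO arrays, against 7.84 and 7.97 in WT (0.25, limma adjusted p = 0.130). These values are from the brightest of 3 probe sets annotated to Socs6, and the others are not shown here. In the numbering of probe sets, this set lies between those of Furin and Lat, genes of chromosome 7, whereas Socs6 is on chromosome 18. Where it lies on the genome was not checked, so it may not measure Socs6. Jak1, the kinase of interferon and gp130 receptors, had the lowest, at 11.28 and 11.34 in the Id2 KO arrays, against 11.41 in both WT arrays (-0.10, adjusted p = 0.530). Jak3 was not analysed here.

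Outside the members, 100 genes of the pathway were listed by role, 95 were measured and 78 lay above the filter. Of these 78, 6 rose and 3 fell (7.69% and 3.85%), against 5.53% and 2.52% of all tested genes, with a median difference of 0.03 beside 0.01 for all tested genes. Among 14 tested chains of receptors listed as using Jak2, alone or beside other JAK kinases such as Jak1, 2 rose and none fell. Csf3r, the G-CSF receptor gene, was at 10.70 and 10.88 in the Id2 KO arrays, against 9.91 and 10.03 in WT (0.82, 1.76-fold, limma adjusted p = 8.08e-04). Lifr, the receptor gene of leukemia inhibitory factor, was at 8.87 and 9.10 in the Id2 KO arrays, against 8.38 and 8.40 in WT (0.60, 1.51-fold, limma adjusted p = 0.00522). Both were apart between the groups. The largest differences among the 12 that did not pass were 0.14 for Il3ra, which encodes the IL-3 receptor, and -0.27 for Epor, which encodes that of erythropoietin. Epor is also on the erythroid list, of which 4 of 6 tested genes fell, and the part of those cells was not tested. The median of these 14 chains was -0.02.

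Among 12 tested receptor chains that signal through other JAK kinases, 1 rose and none fell. Il7r, the IL-7 receptor gene, was at 7.89 and 8.11 in the Id2 KO arrays, against 7.38 and 7.64 in WT (0.49, limma adjusted p = 0.0308), and it no longer passed without WT replicate 1 or without Id2 KO replicate 2, nor with all genes tested. Il9r, at 0.37 (adjusted p = 0.0536), and Il13ra1, at -0.36 (adjusted p = 0.0654), lay just short of the threshold on either side of 0. Il9r passed with both other scalings. Its difference was 0.47 without Id2 KO replicate 1, and that of Il13ra1 was -0.48 without Id2 KO replicate 2. Il21r, the IL-21 receptor gene, and Ptpn1 did not pass as reported but did with 50 added before log2, with genes above the 60th percentile and with a variance trend and robust moderation. None of 13 other negative regulators passed, with Ptpn1, a phosphatase gene whose product removes phosphate from JAK2, closest at 0.31 (adjusted p = 0.0536), and Dusp3 the lowest at -0.06. None of 6 partners of the SOCS box in the ubiquitin ligase passed, with differences between -0.0026 (Cul2) and 0.21 (Elob, which encodes elongin B). At an unadjusted p under 0.05 these lists held 2 and 1 genes.

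**Figure D4:**
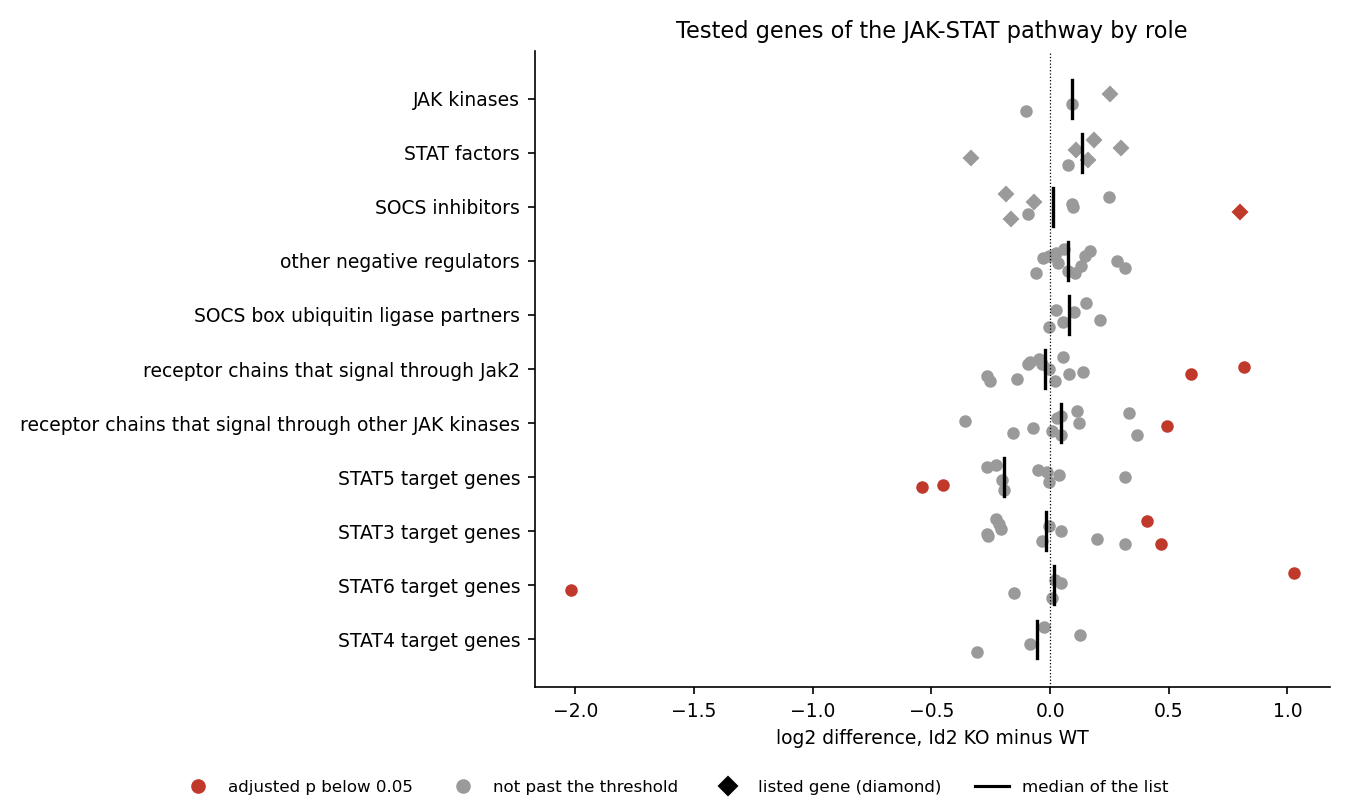
Log2 difference of Id2 KO minus WT (x axis) of each tested pathway gene, in rows by role. Diamonds are the 10 listed genes, circles other genes, red an adjusted p under 0.05 and black bars medians, which lie between -0.19 for STAT5 target genes and 0.13 for STAT factors.

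Genes known as STAT targets did not move in a single direction. Of 11 tested STAT5 target genes, 2 fell and none rose, against 2.52% of all tested genes called lower and 5.53% called higher, with a median of -0.19. Without overlap 7 were lower and none higher, against 22.8% and 27.9% of all tested genes. Osm, the oncostatin M gene, was at 6.80 and 6.75 in the Id2 KO arrays, around the filter level, against 7.25 and 7.39 in WT (-0.54, limma adjusted p = 0.00494). Igf1, the gene of insulin-like growth factor 1, was at 7.21 and 7.26 in the Id2 KO arrays, against 7.68 and 7.69 in WT (-0.45, limma adjusted p = 0.00819), which did not pass without WT replicate 1 or without WT replicate 2. Osm and Igf1 fell while Socs2, which STAT5 also induces, rose, and Cish, another such gene, did not pass (-0.17). The part of other cells in the levels of Osm and Igf1 was not tested. Myc at 0.32 (limma, adjusted p = 0.261) and the survival gene Mcl1 at -0.27 (adjusted p = 0.114), both also on the STAT3 list, did not pass. Without Id2 KO replicate 2 the difference of Myc was 0.54.

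Of 12 tested STAT3 target genes, 2 rose and none fell, with a median of -0.02. Bcl3, which encodes a nuclear partner of NF-κB, was at 9.56 and 9.84 in the Id2 KO arrays, against 9.22 and 9.25 in WT (0.47, limma adjusted p = 0.0242). Icam1, the adhesion molecule gene, was at 10.67 and 10.86 in the Id2 KO arrays, against 10.27 and 10.45 in WT (0.41, limma adjusted p = 0.0399). Both lost their calls without either WT replicate, without Id2 KO replicate 2 and with renewed quantile normalization, and Icam1 also with all genes tested.

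Of 6 tested STAT6 target genes, 1 rose and 1 fell, with a median of 0.02. Chil3, which encodes a chitinase-like protein of macrophages, monocytes and neutrophil-lineage cells, was at 6.31 and 6.59 in the Id2 KO arrays, below the filter level, against 8.27 and 8.68 in WT (-2.02, limma adjusted p = 8.27e-05). Fcer2a, the gene of the low-affinity IgE receptor CD23 that B cells carry, was at 7.72 and 7.78 in the Id2 KO arrays, against 6.53 and 6.92 in WT (1.03, limma adjusted p = 9.42e-04). The neutrophil list (12 of 12 tested genes lower, median -2.69) and the monocyte and macrophage list (5 of 9 lower, median -0.34) moved the same way as Chil3, and the B cell list (9 of 11 higher, median 1.03) the same way as Fcer2a, with the sums given above. Fcer2a is itself on the B cell list, and the part of those cells was not tested. Il4ra, the IL-4 receptor gene, differed by 0.05 and Pdcd1lg2 by -0.15, neither past the threshold. Mrc1, the mannose receptor gene, lay below the filter at -0.80 and passed with all genes tested (limma, adjusted p = 0.0174).

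None of 4 tested STAT4 target genes passed (limma, 1 at an unadjusted p under 0.05). Their differences ran from -0.31 for the protease gene Furin (adjusted p = 0.0873) to 0.12 for the stress gene Gadd45g (adjusted p = 0.575), with a median of -0.05. Furin did pass with renewed quantile normalization (adjusted p = 0.0272). Ifng, Il18r1, Il18rap and Il2ra lay below the filter. Of these, Il18r1, an IL-18 receptor gene, passed with all genes tested (-0.43, limma adjusted p = 0.0362), and Il18rap was tested and passed when the probe sets of each gene were averaged (-0.36, limma adjusted p = 0.0489).

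**Figure D5:**
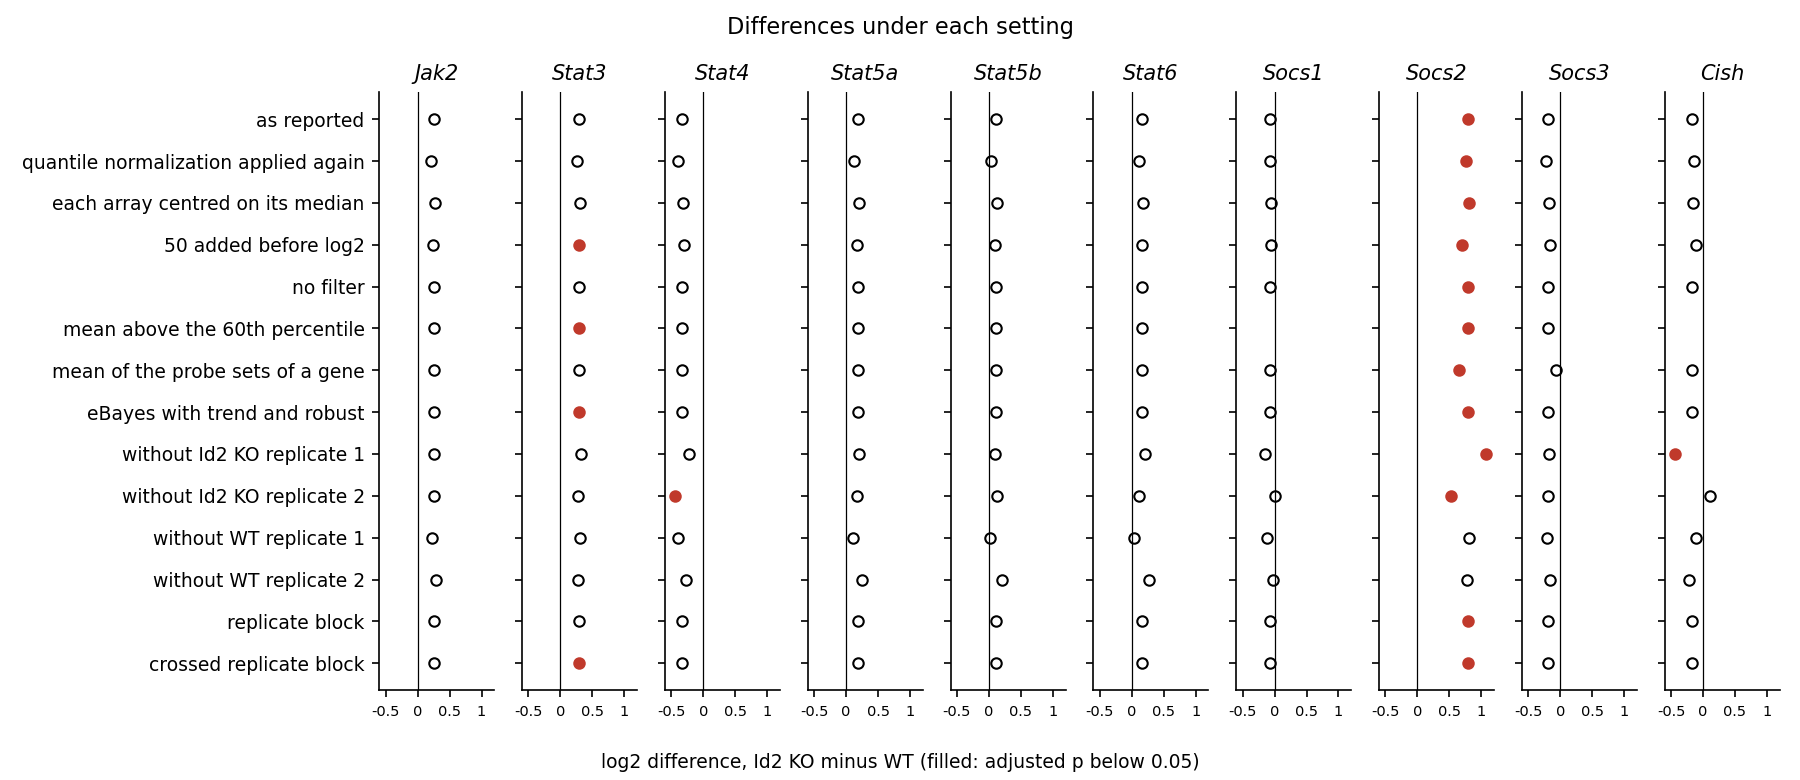
Log2 difference of Id2 KO minus WT (x axis) of each of the 10 genes under each setting (rows), filled where the adjusted p is under 0.05. Stat3, Jak2, Stat5a, Stat5b, Stat6 and Socs2 stay above 0 and Stat4 and Socs3 below 0 throughout, whereas Cish and Socs1 cross 0 without Id2 KO replicate 2.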

How the data were processed

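Gene expression was measured on Affymetrix arrays, 2 labelled Id2 KO and 2 labelled WT. The deposited values are linear intensities per probe set, made by the authors with Affymetrix Expression Console and RMA, per the submitters' processing notes, which give no version or order. Intensities reach from 5.19 to 18624, so RMA's log2 output appears to have been returned to the linear scale. Log2 was taken without a pseudocount. Background was not measured, so dim levels are uncertain in size. Of 28853 probe sets, 21789 had 1 gene symbol, 1621 several and 5443 none listed, and symbols were updated through a GRCm38.p6 gene table, which 21698 matched. Probe sets were assigned to genes by this annotation alone. Where each lies on the genome, and on which strand, was not checked, also for genes with several probe sets such as Socs2, Socs3 and Socs6. Genes whose mean exceeded the 40th percentile (log2 6.77) were tested with limma 3.58.1 in R 4.3.3, with 2 residual and 6.77 prior degrees of freedom. Tested on 20 simulated data sets of these 11963 genes, 88% of genes changed 1.5-fold and 99.8% of those changed 2-fold were recovered, with 4.79% false calls. The number of arrays limits the precision. Named pathway genes were those past the threshold and the largest difference in each direction among the rest of each list, and of each marker list with a median beyond 0.25 the 2 largest differences. The members and lists were chosen with earlier results of these data known. Same-numbered arrays were checked for pairing. The deviations of replicates 1 in both groups correlated at -0.14 over genes.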

Additional observations from a re-analysis of the deposited data

How the results depend on the processing

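The count of members called was 2 with 50 added to each intensity, 2 with genes above the 60th percentile, where Socs1 and Cish were not tested, and 2 with a variance trend and robust moderation, Socs2 and Stat3 in each case, against 1 as reported. With single arrays left out it lay between 0 and 2. It was 0 without either WT replicate, with 3 members (without replicate 1) and 5 (without replicate 2) at an unadjusted limma p under 0.05. Over all tested genes 962 were called, and with single arrays left out 459 to 1171. Among the other pathway genes 9 were called, and 5 to 10 with single arrays left out. Of 128 values of single members under other settings, 118 kept their direction and their side of the threshold, 2 lost a call (Socs2 without either WT replicate) and 6 gained one. The direction turned for Socs1 and Cish without Id2 KO replicate 2: with single arrays left out, their differences ranged from -0.15 to 0.0088 and from -0.44 to 0.11. A fit with 1 array left out holds no scatter for the group of that array, so calls kept or gained there do not measure it. Replicate numbers are shared by the groups but nothing says that they pair mice. With the replicate block 684 genes, 1 member (Socs2, adjusted p = 0.0221) and 9 other pathway genes were called. The pairing crossed, chosen after seeing the data, gave 1380 genes, 2 members (Socs2 and Stat3) and 16 other pathway genes. Another scaling moved the median of all genes by less than 0.1 on the log2 scale.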
